A study of Drosophila melanogaster with 16 samples.

Results

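A set of 10 genes of the fly phototransduction cascade, called the members below, was followed through every library of a study of sweet taste cells in *Drosophila melanogaster*. The members were named by symbol, with no threshold on their values but with earlier results of these data known: *ninaE*, *Rh3*, *norpA*, *trp*, *trpl*, *inaD*, *inaC*, *ninaC*, *Arr1* and *Arr2*. All 10 were found among the 17489 genes of the count tables, and all 10 passed the filter on low counts. They were taken as eye RNA, a reference for how far a pull-down from taste cells leaves out RNA of other cells and for how eye RNA moves with diet. The libraries do not show which cells the RNA of a member came from. Whether a part came from cells outside the eye, taste cells among them, was not tested.

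Phototransduction takes place in the rhabdomere, the stack of microvilli of a photoreceptor cell in the compound eye. Light turns rhodopsin into metarhodopsin, which acts through a Gq protein on a phospholipase C, and the lipid products of that enzyme open the TRP and TRPL cation channels. A scaffold, INAD, holds the lipase, the TRP channel and an eye kinase together, and arrestins end the response by binding metarhodopsin.

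RNA was sequenced from heads of adult males of the genotype Gr5a>UAS-Rpl3-3XFLAG, which all libraries share: the promoter of the sweet receptor gene *Gr5a* drives a FLAG-tagged ribosomal protein through GAL4 and UAS. Lysate RNA of whole heads is called the input. RNA pulled down with the tagged ribosomes (translating ribosome affinity purification, TRAP) is called the Gr5a fraction. A pull-down from flies without the tag was not analysed here. Each replicate pooled 300 heads, so a library is a mean over many flies, and the labels call the replicates biological. Flies went on their diet at day 5 of age and were collected at day 12, or at day 19 after a further 7 days; the age at collection of the 3-day group is not given in the labels. The control diet (CD) held 5% sucrose and the sugar diet (SD) 30%. There were 3 input libraries of CD7 (7 days of control diet) and 2 of SD7, and no other group had an input library. The Gr5a fraction had 3 libraries of CD7, 2 of SD7, 2 of SD3, 2 of CD>CD (14 days of control diet) and 2 of SD>CD (7 days of sugar diet, then 7 of control diet).

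The 16 libraries held between 22901154 and 55290069 gene counts, lowest in the 14-day groups. The titles of both SD>CD libraries read CD>CD, and they were grouped by their condition label. CD>CD replicate 2 stood apart from its label at genes that separated the diets in the input. It had 19.9 CPM (read counts divided by library size, with TMM scaling factors) of *CNMa*, against 10.8 to 14.7 CPM in SD7 of the Gr5a fraction, 1.33 to 1.87 CPM in CD7 and 1.74 CPM in CD>CD replicate 1. It had 1.62 CPM of *Lsp2*, a larval serum protein gene, against 684 CPM in CD>CD replicate 1, so the results of the members with CD>CD, and the counts of the other eye genes, are given with and without that library. The pull-down itself was visible in the receptors of sweet cells (*Gr5a*, *Gr64a*, *Gr64f*, *Gr61a* and *Ir56d*), which together came to 1.27 to 1.99 CPM in the CD7 input and to 11.5 to 19.4 CPM in the CD7 Gr5a fraction. It was not visible as a loss of bitter cell receptors (*Gr66a*, *Gr32a*, *Gr33a* and *Gr89a*). Their sums, near the floor, were 2.39 to 2.76 CPM and 1.93 to 3.77 CPM in the same groups. Of the 3 tested, 0 were called, where 46.2% of all tested genes were.

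All members are protein-coding genes of the Ensembl annotation of BDGP6, the assembly also called dm6. The opsin genes lie on chromosome arm 3R, *ninaE* (FBgn0002940) at 3R:19886255-19888206 and *Rh3* (FBgn0003249) at 3R:20081060-20082450, both on the minus strand. *norpA* (FBgn0262738) lies at X:4322626-4365408. Of the channel genes, *trp* (FBgn0003861) lies at 3R:29914521-29920289 and *trpl* (FBgn0005614) at 2R:9753697-9765518. *inaD* (FBgn0001263) lies at 2R:22855688-22858794, *inaC* (FBgn0004784) at 2R:16898535-16901575 and *ninaC* (FBgn0002938) at 2L:7377702-7384344. The arrestin genes are *Arr1* (FBgn0000120) at 2L:18078269-18081307 and *Arr2* (FBgn0000121) at 3L:8647261-8648936. The exons of *inaD* overlap those of *RpL23* on the opposite strand, which counting by strand keeps apart.

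In the CD7 input the members spanned 91.7-fold in level per kilobase of exon. *ninaE*, which codes for Rh1, the opsin of the outer photoreceptors R1 to R6, led with 9927 ± 1065 CPM per kb (SD, n = 3). *Arr2*, the more abundant arrestin, followed with 2547 ± 318.4 CPM per kb and *Arr1* with 1080 ± 181.9 CPM per kb. These 3 genes stood clear of each other and of the rest. The channel gene *trpl* had 410.6 ± 28.1 CPM per kb, above *norpA* (305.9 ± 12.7) and *trp* (296.2 ± 34.0), whose ranges overlapped. *ninaC* (232.0 ± 25.5) and *Rh3* (217.8 ± 18.7) also overlapped, the highest *ninaC* library reached the lowest of *trp*, and *inaD* (150.0 ± 18.7) and *inaC* (108.3 ± 18.7) closed the order with ranges that did not overlap. In CPM, where long genes gain, *ninaE* ranked 4 among all genes of the CD7 input and 5 in the CD7 Gr5a fraction, so eye RNA was abundant in both. In the CD7 Gr5a fraction *ninaE* (5145 ± 1385 CPM per kb), *Arr2* (1090 ± 150.8) and *Arr1* (319.9 ± 35.4) again led in that order. Below them *trpl*, *trp* and *norpA*, with means of 212.8, 187.6 and 170.4 CPM per kb, had overlapping ranges there, as did *ninaC* and *Rh3*.

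The first question was how far the pull-down left eye RNA behind. On the control diet all 10 members had less RNA in the Gr5a fraction than in their input: the median log2 fold change of the members was -1.08 (2.12-fold lower), with a range from -1.75 to -0.65, against a median of 0.020 over the 14185 genes tested. The members thus fell to between 0.297 and 0.636 of their input level in scaled counts and none was lost from the fraction. These values compare proportions of libraries, and the amount of eye RNA carried into the fraction was not measured. Together they took 2.75% to 3.42% of the gene counts in the CD7 input and 1.17% to 1.93% in the CD7 Gr5a fraction. Among all tested genes 46.2% passed the test (edgeR, adjusted p under 0.1) and 22.0% were called lower, against 10 of 10 members. No member's groups overlapped, which held in this direction for 27.4% of all tested genes.

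Of the opsin genes, *ninaE* had 17250, 16120 and 13920 CPM in the CD7 input and 7539, 10620 and 6355 CPM in the CD7 Gr5a fraction. The highest pull-down library, replicate 2, stayed below the lowest input library. The log2 fold change of *ninaE* was -0.94 (SE 0.21; adjusted p 0.00712 by edgeR). *Rh3*, which codes for an ultraviolet opsin of the inner photoreceptor R7, had 325.5, 308.7 and 274.5 CPM in the input and 144.7, 172.1 and 121.6 CPM in the Gr5a fraction, a log2 fold change of -1.05 (SE 0.15; adjusted p 0.000943 by edgeR). The intervals of the outer and the inner photoreceptor opsin, -1.41 to -0.48 and -1.39 to -0.71, overlapped. *norpA*, the phospholipase C, had 2570, 2623 and 2421 CPM in the input against 1278, 1707 and 1257 CPM, a log2 fold change of -0.84 (SE 0.15; adjusted p 0.00272 by edgeR).

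The smallest decrease was in *trp*, the main light-gated channel. It had 1255, 1356 and 1077 CPM in the input and 719.9, 978.5 and 636.5 CPM in the Gr5a fraction. The log2 fold change was -0.65 (SE 0.17; adjusted p 0.0156 by edgeR). *trpl*, the second channel gene, had 1662, 1661 and 1472 CPM against 793.5, 1007 and 684.0 CPM, a log2 fold change of -0.94 (SE 0.17; adjusted p 0.00289 by edgeR). The genes of the signalling scaffold fell close together: *inaD*, the scaffold, by 1.12 (SE 0.13; adjusted p 0.000276 by edgeR) and *ninaC*, a myosin III with a kinase domain, by 1.13 (SE 0.13; adjusted p 0.000308 by edgeR) on the log2 scale. *inaC*, the eye protein kinase C, had 305.3, 227.3 and 231.5 CPM in the input and 106.5, 122.3 and 87.9 CPM in the Gr5a fraction, a log2 fold change of -1.27 (SE 0.15; adjusted p 0.000319 by edgeR).

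The largest decrease was in *Arr1*, with 3189, 2352 and 2483 CPM in the input and 827.6, 856.5 and 692.3 CPM in the Gr5a fraction. Its log2 fold change was -1.75 (SE 0.15; adjusted p 8.69e-05 by edgeR), with a 95% interval from -2.10 to -1.41 that lay below the estimate of every other member. *Arr2* had 4507, 3706 and 3610 CPM against 1729, 1894 and 1433 CPM, a log2 fold change of -1.22 (SE 0.15; adjusted p 0.00038 by edgeR). Within the pull-down, replicate 2 was the highest of the 3 CD7 libraries for all 10 members and replicate 3 the lowest for all 10. In the input, replicate 1 was highest for 8 members and replicate 3 lowest for 7. The members thus moved up and down together between the CD7 Gr5a replicates, and less so between the CD7 input replicates. They split in SD7 of the Gr5a fraction, where replicate 1 was highest for 3 members and replicate 2 for 7. The count of members called lower was 10 under every alternative tried for this comparison.

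**Figure D1:**
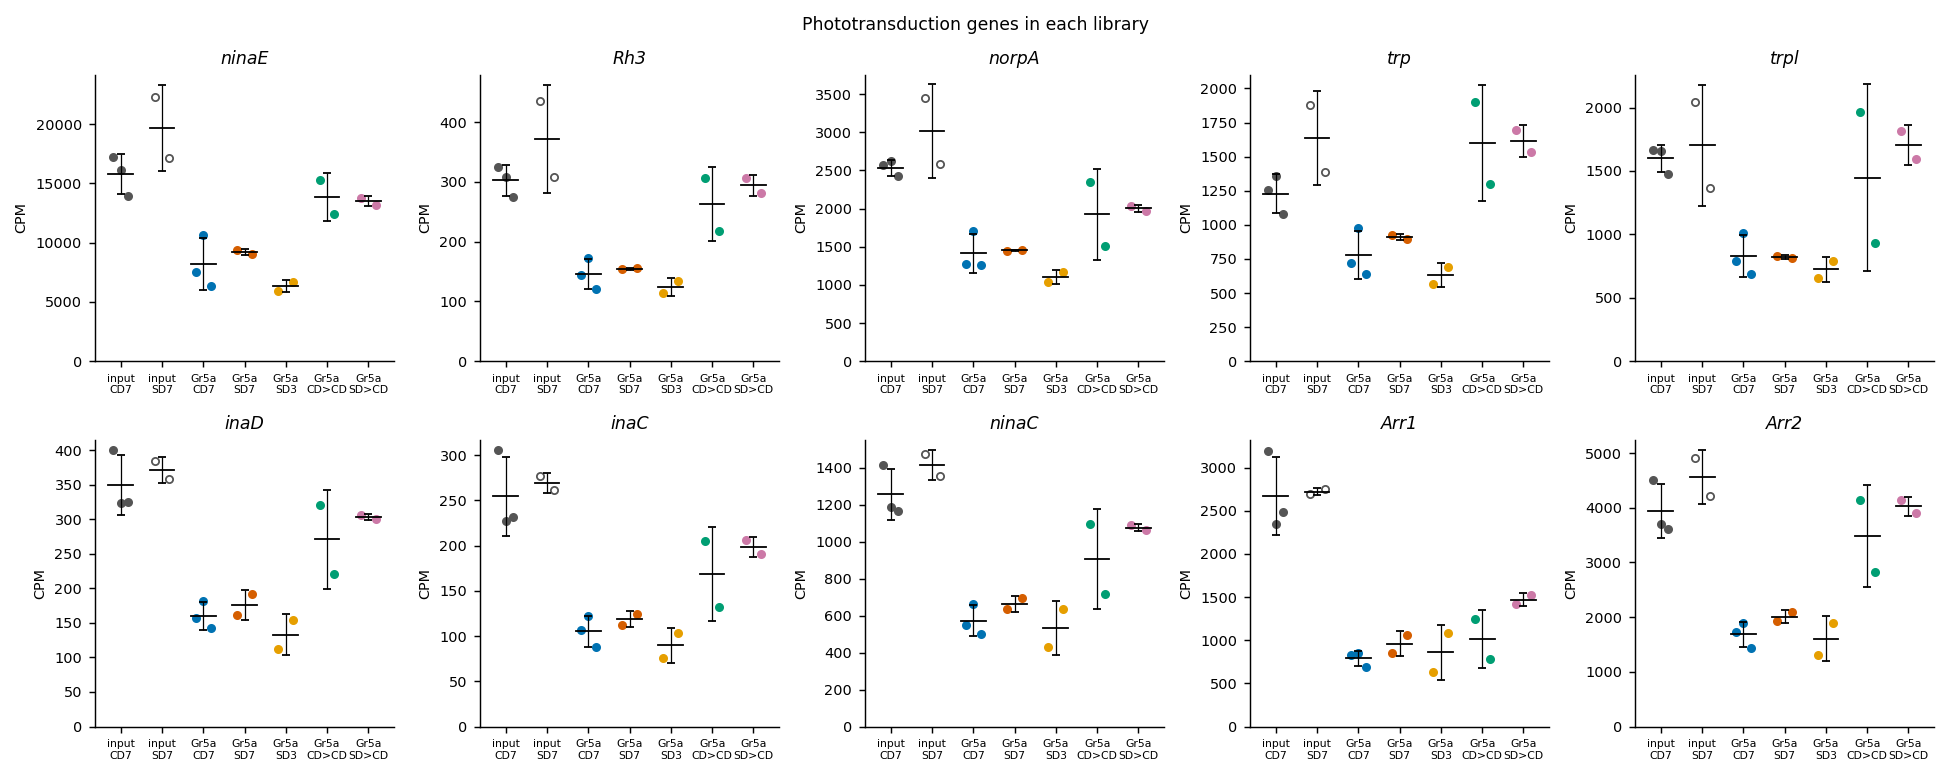
Level of each member in CPM (y axis, from 0) in the 16 libraries, grouped by fraction and diet (x axis). Points are libraries, horizontal lines group means and error bars 1 SD; in each panel the CD7 points of the Gr5a fraction lie below all CD7 input points, and *Arr1* stays below its lowest input library (2352 CPM) in every Gr5a library.

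The other genes of the cascade did not all follow the members. Of 29 genes of the pathway outside the members, 18 were lower and 4 higher in the pull-down of CD7 flies (median log2 fold change -0.47). Of all tested genes 22.0% were called lower and 24.3% higher. All 5 further opsin genes fell: *Rh5* by 1.28, *Rh2*, the opsin of the ocelli, by 1.24, *Rh4* by 1.03, *Rh6* by 0.95 and *Rh7* by 0.35 on the log2 scale. Of the G protein genes, *Gbeta76C*, the eye beta subunit, fell by 1.63, *Ggamma30A* by 0.47 and *Galphaq*, which is used in many cell types, by 0.28. *rtp* (retinophilin), a partner of NINAC, fell by 1.38, and *ninaA*, the chaperone of Rh1, by 1.18. Genes of the lipid cycle that refills the substrate of NORPA split: *CdsA* fell by 0.98 and *Pis* by 0.47, *rdgA* and *rdgB* had log2 fold changes of -0.0050 and -0.016 that did not pass, and *laza* and *inaE*, which handle the lipid products of the lipase, rose by 0.64 and 0.55. Among the genes that end the response, *rdgC* and *Gprk1* each fell by 0.52, *stops* fell by 0.42, and *Calx* did not pass (-0.17).

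The other lists of eye genes held calls in both directions, apart from the histamine genes, of which 4 of 6 were lower. Over all tested genes 24.3% were called higher and 22.0% lower. *Pdh*, a retinol dehydrogenase of the pigment cells, rose by 1.09 (SE 0.21; adjusted p 0.00392 by edgeR), whereas *pinta*, a retinoid-binding gene grouped with it, fell by 0.59. Of 9 eye pigment genes tested, 6 were higher and 1 lower, with a median log2 fold change of 1.06. The transporter genes *w*, *st* and *bw*, whose products carry pigment precursors, rose by 1.33, 1.21 and 1.06, and the pteridine genes *se* and *Pu* by 1.13 and 1.07 on the log2 scale. The call for *car* (0.41) was also higher, *p* (0.067) and *lt* (-0.20) did not pass, and *v*, a tryptophan oxygenase of the ommochrome pathway, fell by 0.78, a call lost with unstranded counts. The lens genes *Cpr72Ec* and *retinin* rose by 1.36 and 0.97. The list of 8 genes of rhabdomere and lens had 3 higher, 3 lower and a median of 0.10, counts that for 8 genes are near the shares over all tested genes. Of its rhabdomere and matrix genes, *chp* fell to 0.434 of its input level, *prom* and *Cpn* fell by 0.84 and 0.78 on the log2 scale, *crb* rose by 0.47, and *eys* did not pass (-0.26). At the photoreceptor synapse, *t*, which frees histamine from its conjugate, fell by 1.16 on the log2 scale, the carcinine transporter gene *CarT* by 0.90, *Hdc*, which makes histamine, by 0.73, and *ort*, the histamine receptor of the next neuron, by 0.72. With the unstranded counts, which Gr5a CD7 replicate 1 lacks, the fit went without that library and the median of the pigment genes was 0.60. Leaving out single libraries from the same-strand counts gave medians of 0.95 to 1.13.

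**Figure D2:**
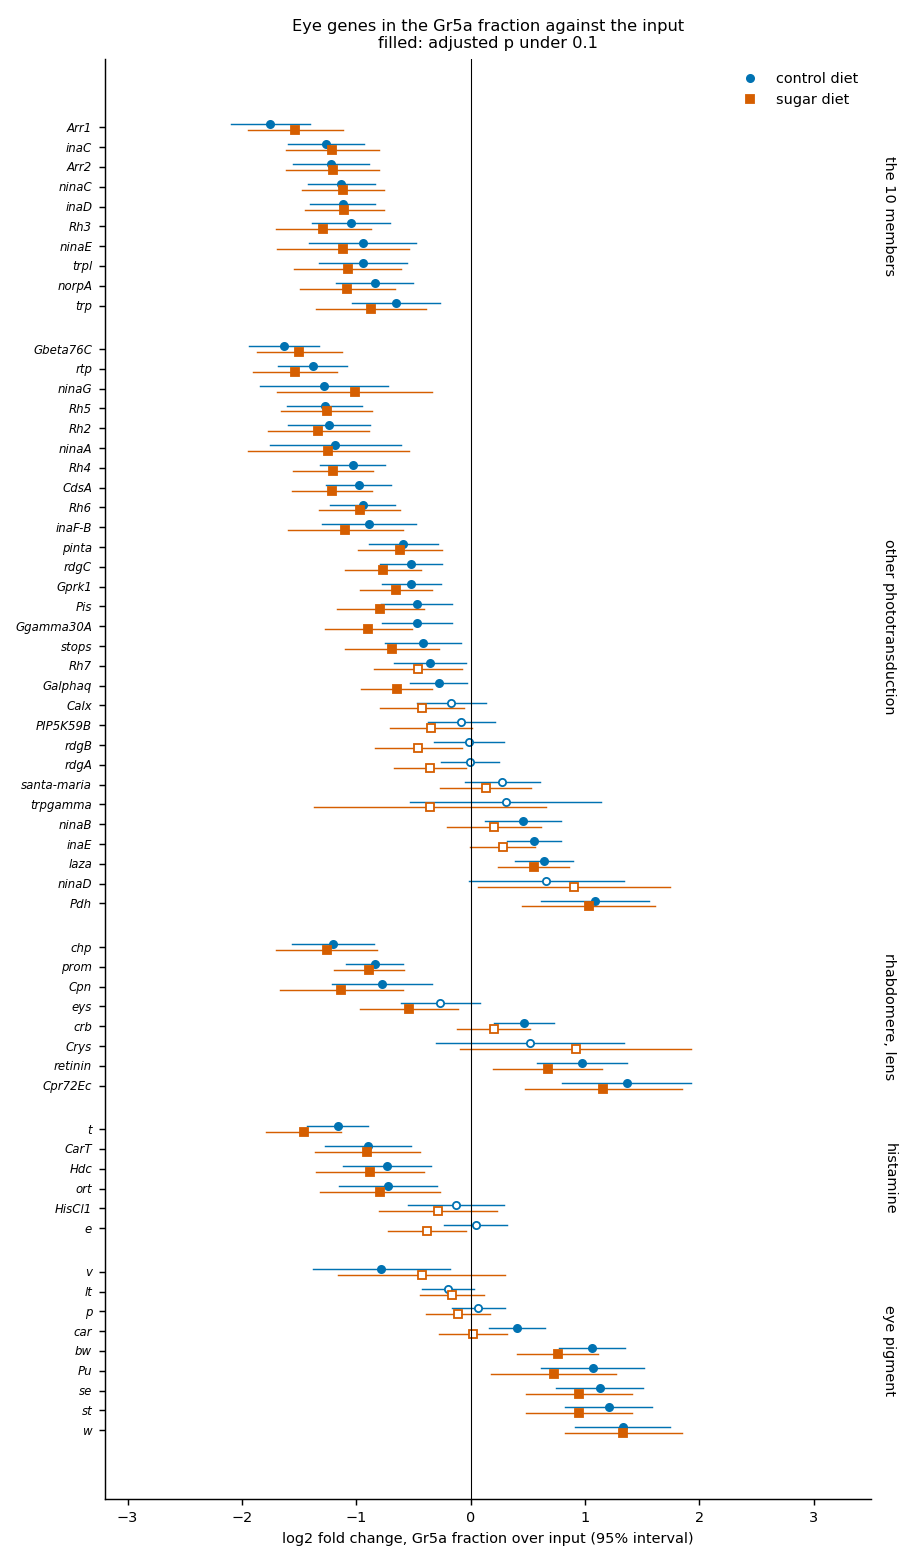
Log2 fold change of the Gr5a fraction over the input (x axis) for the 10 members and 4 other lists of eye genes (y axis), with 95% intervals from the edgeR standard error. Circles are the control diet, squares the sugar diet and filled symbols genes with adjusted p under 0.1; all members lie left of 0 on both diets, whereas *w*, *st*, *se*, *Pu*, *bw*, *Pdh*, *retinin* and *Cpr72Ec* lie right of it on both.

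Lists of other tissues, some of them outside the head, gave mixed values on the control diet. Of all tested genes 24.3% were called higher and 22.0% lower. Of 7 pan-neuronal genes tested (*elav*, *nSyb*, *Syt1*, *brp*, *Syx1A*, *Rdl* and *ChAT*), 1 was lower, with a median log2 fold change of -0.16, and their sum was 4078 to 4477 CPM in the CD7 input and 3481 to 4717 CPM in the CD7 Gr5a fraction. Glial genes summed to 1927 to 2078 CPM and 2398 to 2913 CPM in the same groups, and 3 of 6 were called higher and 1 lower. Genes of the fat body list summed to 12980 to 18280 CPM in the input and 5081 to 7671 CPM in the Gr5a fraction, with 1 of 6 lower. Most of that sum was 1 gene, *apolpp*, with 12130 to 16900 CPM in the input and 4513 to 7015 CPM in the Gr5a fraction. Digestive genes of the midgut list summed to 844.8 to 1176 CPM and 2583 to 5242 CPM, with 8 of 8 higher (median log2 fold change 1.79). Of the muscle genes 3 of 5 were lower (median -0.74). The accessory gland list had 5 of 5 lower (median -1.77) and the testis list 4 of 4 (median -1.945), both medians below that of the members (-1.08). Whether these lists had a part in the values of the members was not tested.

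**Figure D3:**
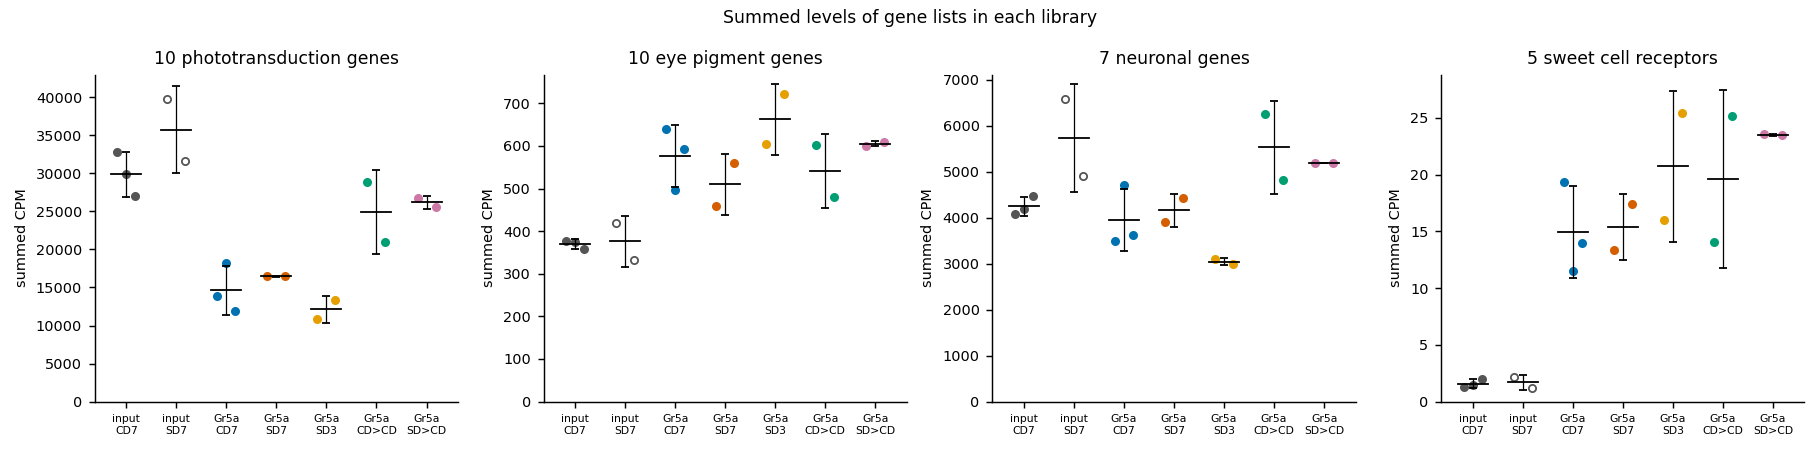
Summed CPM (y axes, from 0) of the members, the eye pigment genes, the neuronal genes and the sweet cell receptors in each library (x axis, by group). Points are libraries, lines group means and error bars 1 SD; at day 7 the members lie below the input in the Gr5a fraction, the pigment genes and sweet cell receptors higher, and the neuronal genes overlap between fractions on the control diet.

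The pull-down on the sugar diet gave the same picture for the members. All 10 were called lower (median log2 fold change -1.12, range -1.53 to -0.87), where 18.7% of all tested genes passed and 7.95% were called lower. The groups did not overlap for any member, as for 20.5% of all tested genes in this direction. *ninaE* had 22240 and 17120 CPM in the SD7 input and 9411 and 9049 CPM in the SD7 Gr5a fraction, a log2 fold change of -1.12 (SE 0.26; adjusted p 0.0206 by edgeR). *Arr1* again fell most, from 2695 and 2749 CPM to 855.7 and 1064 CPM, a log2 fold change of -1.53 (SE 0.19; adjusted p 0.00124 by edgeR). *trp* again fell least (-0.87, SE 0.21; adjusted p 0.0263 by edgeR). Without SD7 input replicate 1 the count was 8, as *ninaE* (adjusted p 0.116) and *trp* (0.18) did not pass, and without SD7 Gr5a replicate 2 it was 9, as *trp* did not (0.107). Of the other pathway genes 17 were lower and 2 higher, and of the pigment genes 5 were higher and 0 lower, where 10.8% of all tested genes were called higher. Of the neuronal genes 4 of 7 were lower here, with a median log2 fold change of -0.47.

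Whether the loss of eye RNA in the pull-down differed between diets was tested directly. The difference between the log2 fold changes on the sugar and the control diet lay between -0.24 (*Rh3*) and 0.22 (*Arr1*), with a median of -0.060 over the members and -0.055 over all tested genes. edgeR called 0 of 10 members and 0.0% of all tested genes, and 0 members had an unadjusted p under 0.05, as did 1391 genes in all. The DESeq2 Wald test also called 0 members. The precision was limited: the 95% interval of the difference for *ninaE* ran from -0.91 to 0.56, and for *inaD*, the best measured member, from -0.43 to 0.46.

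Ratios between members, which do not depend on library scaling, showed where the members did not move as a block. They were looked at after the fits and are given as a description. *Arr1* over *Arr2* lay between 0.549 and 0.708 in the 5 day-7 input libraries and between 0.445 and 0.506 in the 5 day-7 Gr5a libraries. It was lower still in the 4 Gr5a libraries of 14-day flies, between 0.276 and 0.390, and between 0.479 and 0.571 in SD3. The input, the day-7 CD7 and SD7 fraction and the 14-day fraction did not overlap in this ratio, and SD3 reached into both day-7 ranges. *Arr1* made up 6.77% to 9.70% of the summed members in the input, 4.71% to 6.43% in the day-7 fraction and 3.71% to 5.96% in the 14-day fraction, where the last ranges overlapped. The share of *trp* went the other way, from 3.82% to 4.73% in the input, 5.20% to 5.62% in the day-7 fraction and 6.01% to 6.60% in the 14-day fraction, with no overlap among these ranges.

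The ratio of *trpl* to *trp* CPM was 1.32, 1.23 and 1.37 in the CD7 input and 1.08 and 0.979 in the SD7 input. In the Gr5a fraction it was 1.10, 1.03 and 1.08 in CD7, 0.898 and 0.905 in SD7, and 1.15 and 1.14 in SD3. The ratio was thus lower after 7 days of sugar than after 7 days of control diet in both fractions, and the SD3 libraries were not below CD7. CD>CD replicate 2 had the lowest value of all 16 libraries (0.715), against 1.03 in CD>CD replicate 1 and 1.07 and 1.04 in SD>CD. The ratio of *ninaE* to *Rh3* CPM overlapped between the day-7 fractions, at 50.7 to 55.6 in the input and 52.1 to 61.7 in the pull-down.

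**Figure D4:**
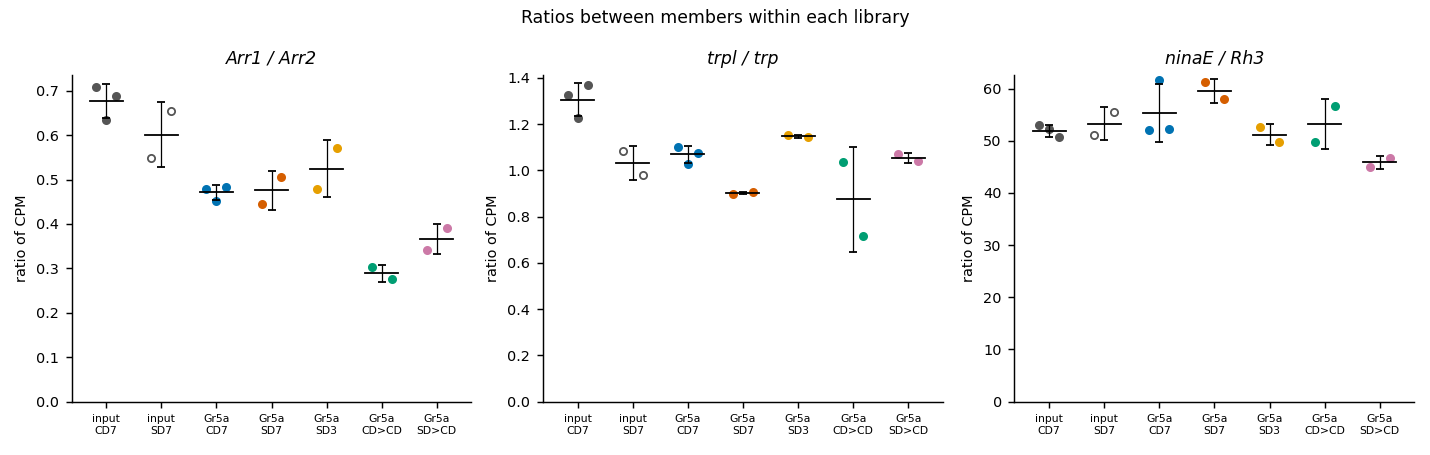
Ratio of CPM between pairs of members within each library (y axes, from 0) by group (x axis). Points are libraries, lines group means and error bars 1 SD; *Arr1* over *Arr2* steps down from the input to the day-7 Gr5a fraction and to the 14-day Gr5a fraction, *trpl* over *trp* is lower in SD7 than in CD7 in both fractions, and *ninaE* over *Rh3* overlaps.

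The diet response of eye RNA in whole heads was read from the input. Between flies of different diets or ages, RNA per photoreceptor and the number of photoreceptors cannot be told apart in bulk RNA. Between SD7 and CD7 the log2 fold changes of the members lay between 0.033 (*Arr1*) and 0.42 (*trp*), with a median of 0.20 against 0.021 over all tested genes. edgeR and the DESeq2 Wald test each called 0 of 10 members, and 0 had an unadjusted p under 0.05, while edgeR called 0.0705% of all tested genes. *trp* had 1882 and 1391 CPM in SD7 and at most 1356 CPM in CD7, and was the only member whose groups did not overlap, where 22.2% of all tested genes were apart in this direction. Its 95% interval ran from -0.0095 to 0.85. For *ninaE* the interval was -0.19 to 0.84 and for *Arr1* -0.34 to 0.41, so a rise in *ninaE* of up to 0.84 was within the error. SD7 input replicate 1 was the higher library for 9 of 10 members and had summed members of 39780 CPM against 31700 CPM in replicate 2. It also had the higher neuronal sum (6569 against 4909 CPM). Without SD7 replicate 1 the median of the members was 0.040 and without SD7 replicate 2 it was 0.33. With library totals in place of TMM factors the median over all tested genes was -0.11.

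Within the Gr5a fraction, 3 days of sugar gave lower estimates and 7 days higher ones, with no call in either. SD3 against CD7 gave log2 fold changes between -0.45 (*ninaE*) and 0.033 (*Arr1*), a median of -0.31 against -0.076 over all 13758 genes tested. edgeR called 0 of 10 members where it called 0.0436% of all tested genes, 0 members had an unadjusted p under 0.05, and the DESeq2 Wald test called 0. *norpA* was the only member whose groups were apart, with 1041 and 1165 CPM in SD3 and 1278, 1707 and 1257 CPM in CD7, against 17.9% of all tested genes in this direction. Its 95% interval ran from -0.88 to 0.010. The neuronal genes had a median of -0.44 in the same comparison, with sums of 2991 to 3100 CPM in SD3. SD3 replicate 1 was the lower library for all 10 members. Without an SD3 input, a change in the head cannot be told apart from a change in carry-over into the pull-down.

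SD7 against CD7 in the Gr5a fraction gave log2 fold changes between 0.0079 (*trpl*) and 0.29 (*Arr1*), a median of 0.19 against 0.041 over all tested genes. Here too edgeR called 0 members and 0.0% of all tested genes, 0 members had an unadjusted p under 0.05, and the DESeq2 Wald test called 0. The SD7 libraries of *ninaE* lay inside the CD7 range, with 9411 and 9049 CPM between CD7 values of 6355 and 10620 CPM. *Arr2* was the one member apart, with 1923 and 2100 CPM above at most 1894 CPM, against 8.6% of all tested genes in this direction. The 95% interval of *Arr2* was -0.17 to 0.72 and that of *ninaE* -0.33 to 0.72. SD3 and SD7 share the CD7 libraries as controls.

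No member differed past the threshold between flies returned from sugar and flies kept on the control diet. SD>CD against CD>CD gave log2 fold changes between 0.018 (*ninaE*) and 0.59 (*Arr1*), a median of 0.24 against -0.034 over all tested genes. edgeR called 0 of 10 members higher, against 0.211% of all tested genes, and the DESeq2 Wald test called 0. *Arr1* was the 1 member with an unadjusted p under 0.05, with 1417 and 1523 CPM in SD>CD and 1251 and 780.7 CPM in CD>CD, an adjusted p of 0.235 in edgeR with a 95% interval from 0.030 to 1.16. The groups of *Arr1* were apart, as for 11.3% of all tested genes in this direction. *ninaE* had 13780 and 13190 CPM against 15290 and 12390 CPM. The summed members came to 21020 and 28830 CPM in the CD>CD libraries and to 25560 and 26800 CPM in SD>CD. CD>CD replicate 1 was the higher of its pair for all 10 members. Without CD>CD replicate 2, whose label is in doubt, the median of the members was 0.020 and 0 were called. Without replicate 1 it was 0.47 and 2 members were called higher, *trpl* (0.87, edgeR adjusted p 0.031) and *Arr1* (0.90, edgeR adjusted p 0.0765). Across all tested genes 13.3% were called in this comparison and 13.1% were called lower. The count of members called lower was 0, which for 10 genes is near that share. With at least 10 counts required in every library, 144 of 9932 genes were called. The midgut list, at 1426 to 3093 CPM in CD>CD, summed to 19.4 to 35.6 CPM in SD>CD, and its part in the values was not tested.

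The members had higher estimates in both 14-day groups of the Gr5a fraction than in CD7. CD>CD against CD7 gave positive log2 fold changes for all 10 members (0.29 to 0.98, median 0.69, a 1.61-fold level, against a median of -0.061 over all tested genes), and 6 were called higher where 7.65% of all tested genes were (14.1% in either direction). The groups were apart for 7 members, as for 22.0% of all tested genes in this direction. Age, time and any difference between the experiments cannot be told apart in this comparison. Without a 14-day input, a change in the head and a change in carry-over into the pull-down cannot be told apart either. *Arr2* had 4141 and 2830 CPM in CD>CD and 1729, 1894 and 1433 CPM in CD7, a log2 fold change of 0.98 (SE 0.20; adjusted p 0.0256 by edgeR). *trp* had 1903 and 1299 CPM against 719.9, 978.5 and 636.5 CPM, a log2 fold change of 0.97 (SE 0.21; adjusted p 0.03 by edgeR). Of the CD>CD values of *trp*, 1299 CPM lay inside the range of the CD7 input (1077 to 1356 CPM) and 1903 CPM above it.

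*Rh3* rose by 0.78 (edgeR adjusted p 0.0301), *inaD* by 0.69 (0.0441), *inaC* by 0.60 (0.0858) and *ninaC* by 0.59 (0.0992) on the log2 scale. The other 4 did not pass: *ninaE* had 0.69 (edgeR adjusted p 0.1004), *trpl* had 0.73 (0.121), *norpA* 0.37 (0.25) and *Arr1* 0.29 (0.439). *ninaE* had 15290 and 12390 CPM in CD>CD and at most 10620 CPM in CD7, so its groups were apart. The call depended on single libraries. Without CD>CD replicate 1, or without CD7 replicate 3, 0 members passed, and without CD7 replicate 1 there were 3. Without CD>CD replicate 2 there were 9, with a median of 0.88, and without CD7 replicate 2 also 9. The fit on these groups alone called 0 members. The unstranded counts, which CD7 replicate 1 lacks, gave 3, the same count as without that library. Set against the same CD7 libraries, SD>CD had all 10 members called higher (median 0.90), where 15.7% of all tested genes were. The comparisons with CD7 share those libraries, and both 14-day comparisons share CD>CD.

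**Figure D5:**
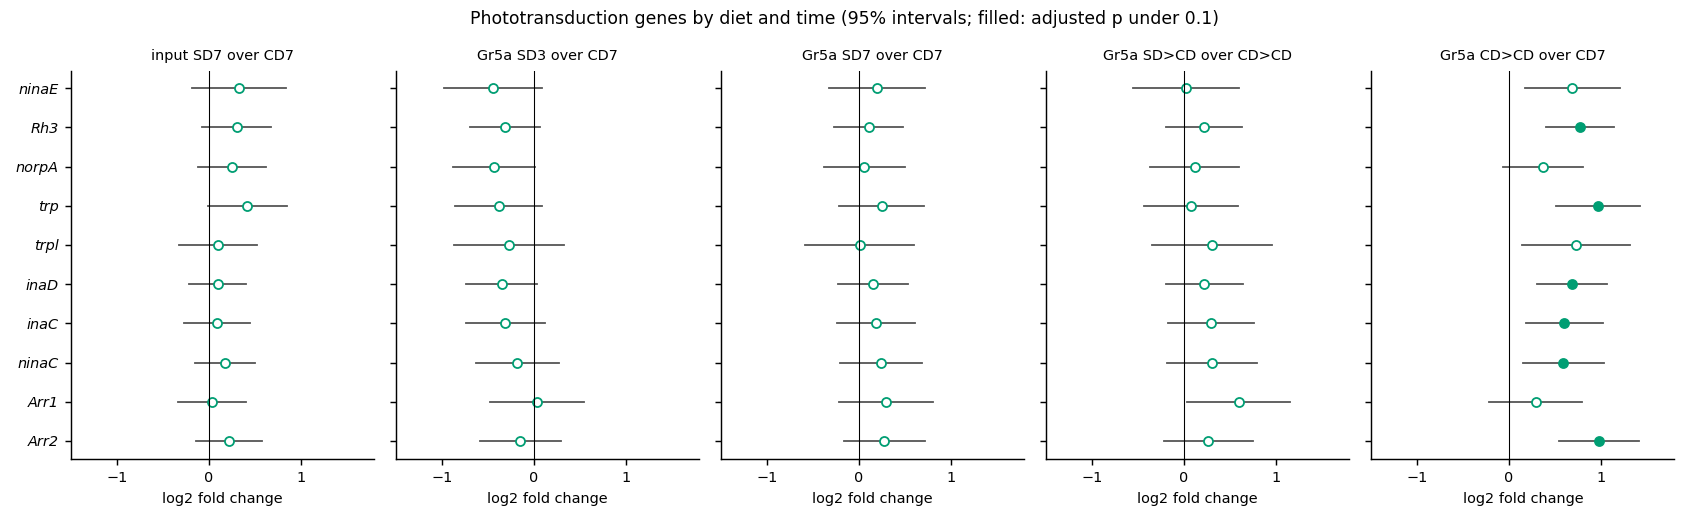
Log2 fold change of each member (y axis) with 95% intervals in the 5 comparisons between diets or times (x axes, log2 scale). Filled points have adjusted p under 0.1 (edgeR): 6 members pass in CD>CD over CD7 and none in the other 4 panels.

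Other eye genes were also called higher at 14 days, with counts that rested on single libraries. Of the 29 other pathway genes 13 were called higher and 1, *ninaD*, lower (median 0.49), where 7.65% of all tested genes were called higher and 6.46% lower. The 13 included all 5 further opsin genes, with log2 fold changes of *Rh4* at 1.08, *Rh6* at 1.04, *Rh7* at 0.86, *Rh2* at 0.76 and *Rh5* at 0.49. Of the 8 genes of rhabdomere and lens 4 were called higher (*prom* 1.09, *Cpn* 0.95, *eys* 0.79 and *chp* 0.74), and of the 6 histamine genes 3 (*ort* 1.33, *CarT* 0.95 and *Hdc* 0.85). The pigment genes, higher in the pull-down than in the input, had 1 call higher (*car*) and 1 lower (*Pu*), with a median of 0.21. Without CD>CD replicate 2 the other pathway genes had 19 called higher (median 0.68), the rhabdomere and lens genes 5, the histamine genes 3 and the pigment genes 3. Without CD>CD replicate 1 these counts were 2, 0, 1 and 0, without CD7 replicate 3 they were 5, 1, 1 and 0, and without CD7 replicate 1 they were 7, 1, 2 and 0. With the groups compared alone 1 other pathway gene and 0 genes of the other lists were called higher, and with the replicate block 0 genes of any list. In the same comparison 2 of 7 neuronal genes were called higher (median 0.38), with sums of 4818 to 6249 CPM in CD>CD, and 0 of 6 glial genes (median -0.092). Whether the neuronal genes had a part in the rise of the members was not tested.

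The genes whose pattern was most like the members over the 16 libraries were found by Pearson correlation of log2(CPM + 1) with the mean of the members, each centred, among genes with a mean of at least 5 CPM. The 10 non-member genes with the highest values were *chp* (0.996), *Rh2* (0.986), *boss* (0.985), *rtp* (0.983), *Mppe* (0.979), *Ekar* (0.978), *beat-Vb* (0.974), *lqf* (0.968), *Eaat2* (0.967) and *CG14591* (0.967). *chp* codes for chaoptin, a surface protein of photoreceptors, and *boss* for the ligand that specifies R7. The members themselves correlated with their mean at 0.903 (*trp*) to 0.993 (*ninaC* and *inaD*), with *Arr1* at 0.904. Each member is part of that mean, which raises its own value. The 16 libraries share scaling, depth and group structure, so these values describe the series and carry no test.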

How the data were processed

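The authors deposited STAR gene counts per library (dm6, Ensembl BDGP6 genes), with unstranded and per-strand columns. The counts of the strand that held 96.5% of stranded counts were used. For Gr5a CD7 replicate 1, deposited as a single count column, that column was taken as same-strand counts because its values at the 498 and 306 genes whose columns were far apart lay nearer the same-strand counts of the other CD7 libraries (median absolute log2 difference 0.6 and 0.35) than their unstranded counts (4.44 and 4.89). Per the labels, HTSeq, SAMtools 1.4 and DESeq2 1.18.0 were also among the authors' tools. edgeR 4.0.16 (R 4.3.3) quasi-likelihood tests with filterByExpr, TMM factors and a prior count of 0.125 were fitted over the 10 day-7 libraries (14185 genes) and the 11 Gr5a libraries (13758 genes). P-values were adjusted by Benjamini-Hochberg over all tested genes, and genes with adjusted p under 0.1 were called. Standard errors are the log2 fold change over the root of F, and 95% intervals use the t quantile of the test.

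CPM were scaled by TMM over the 16 libraries. Genes named are the members, the genes of the eye lists, the 10 genes most like the members, and some genes of the lists of other cells. Members and lists were chosen with earlier results of these data known. Replicate numbers paired input and Gr5a fraction of CD7: deviations from group means of same-numbered libraries correlated at 0.349, 0.234 and 0.283. No replicate pair agreed within sampling noise. On simulated counts the test recovered 59% of genes changed by log2 1 in the control-diet pull-down comparison. It recovered 37% in CD>CD against CD7 and 23% in the diet by fraction interaction. The simulations changed 100 genes by log2 1 and 100 by log2 1.5. That is far fewer than the 46.2% of genes called in the control-diet pull-down, so these rates need not hold for the members. Alternatives were unstranded counts (without Gr5a CD7 replicate 1, which has none), DESeq2 size factors, library totals and the DESeq2 1.42.0 Wald test. Further ones were other filters, abundant genes left out of the scaling, groups fitted alone, a replicate block and leaving out each library.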

Additional observations from a re-analysis of the deposited data

How the results depend on the processing

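The members stayed lower in the pull-down under every alternative on both diets, with 0 sign changes among 150 and 140 values, and the calls were lost only for *ninaE* and *trp* when a sugar-diet library was left out (8 to 10 called). With CD7 as the control, the count of members higher in SD>CD was 10. For CD>CD against CD7, the count of members called higher was 3 with unstranded counts, a fit that lacks CD7 replicate 1. It was 0 with the groups compared alone and 0 with the replicate block. Leaving out a library moved that count between 0 and 9, and the count for SD>CD against CD>CD between 0 and 2. The replicate block left 10 members lower on the control diet (6395 genes called in all), and beside CD>CD against CD7 it changed no count of members called; SD>CD and CD>CD share no replicate number, so no block could be fitted there. The crossed pairing, chosen after seeing the data because same-numbered SD7 libraries correlated at -0.272, called 10 members lower and 3931 genes in all, against 2583 with the numbers as labelled and 2655 without a block.

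Several list medians (log2) turned sign when a library was left out. In SD>CD against CD>CD these were the other pathway genes (-0.047 to 0.30) and the rhabdomere and lens genes (-0.072 to 0.20), which turned with the other low-count filters too. The rhabdomere and lens genes also turned in the control-diet pull-down (-0.15 to 0.20), the sugar-diet pull-down (-0.35 to 0.069, and 0.0083 with library totals), the input diets (-0.048 to 0.33) and SD7 (-0.056 to 0.27). The pigment genes turned in CD>CD against CD7 (-0.063 to 0.37), the input diets (-0.15 to 0.21), SD3 (-0.026 to 0.16) and SD7 (-0.19 to 0.022). For the interaction the members turned (-0.21 to 0.10, and 0.15 with library totals), as did the other pathway, pigment and histamine genes. The causes were not tested.

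Over all genes, the counts called ranged over the alternatives from 4782 to 6942 in the control-diet pull-down, from 1230 to 3931 in the sugar-diet pull-down, from 0 to 12 for the interaction, from 1 to 1391 for the input diets, from 0 to 478 for SD3, from 0 to 57 for SD7, from 144 to 5982 for SD>CD and from 0 to 3388 for CD>CD against CD7. Library totals moved the median of all genes in the sugar-diet pull-down to 0.16 and the share of calls that were higher from 57.6% to 80.3%; the median of the members was then -0.94. They moved that share from 40.0% to 10.5% for the input diets and from 54.2% to 44.0% for CD>CD against CD7, and DESeq2 size factors gave 19.0% for the input diets. With 2 or 3 libraries a group, differences in the members whose printed interval holds 0 could not be told from 0.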
